A study of Rattus norvegicus with 12 samples.

Results

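The genes described here code for the proteins of the mitochondrial ribosome, measured in rat liver under 3 diets. They were taken as every probe set annotated with exactly 1 gene symbol that starts with Mrpl or Mrps and goes on with a number. This gave 68 genes on 72 probe sets, out of 14506 genes on 15310 probe sets with 1 symbol. Of these, 41 genes (44 probe sets) carry large-subunit names and 27 genes (28 probe sets) small-subunit names. A further probe set listed Mrpl20 together with another gene and was left out. No filter on low values was used, so all 72 probe sets were tested.

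Mitochondria keep a small genome of their own that codes for core subunits of the respiratory chain and ATP synthase. These proteins are made inside the organelle by a dedicated ribosome with a large subunit, which joins amino acids into protein, and a small subunit, which reads the messenger RNA. Its RNAs come from mitochondrial DNA, while all of its proteins are coded in the nucleus, made in the cytosol and imported. Liver is rich in mitochondria, which there serve fatty acid oxidation, the urea cycle and gluconeogenesis. Names follow the historical numbering, and the proteins of Mrps18a and Mrps30 are now placed in the large subunit.

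Livers came from 12 Sprague-Dawley rats, all male and with diet-induced obesity, 4 per diet, read here as 1 sample per rat and hybridised to 1 Affymetrix Rat Gene 1.0 ST array each. All rats ate a high fat, high sucrose diet ad libitum for 8 weeks, from 12 to 20 weeks of age, with 10% of energy as protein and 4.6 kcal per gram. The casein group (casein is the main milk protein) was the control, the dairy group received complete dairy as skim milk powder, and the leucine group received casein at 7.1% with leucine, a branched-chain amino acid that activates the growth regulator mTORC1, at 2.9%. The leucine diet held less casein than the control, so added leucine and less casein cannot be told apart, nor can milk protein and the other parts of skim milk. There was no lean or standard-diet group, so each difference is between obese rats on different protein sources. The comparisons ask whether the protein source changed transcripts of mitochondrial ribosomal proteins in liver. Both test diets were set against the same 4 casein arrays, so those comparisons are not independent of each other. In whole liver, fewer cells of a type and less RNA per cell cannot be told apart. The p-values measure only the spread between these samples.

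Values are deposited log2 signals, on which a difference of 1 is a 2-fold difference. The 10 hepatocyte markers, albumin among them, stood between percentiles 97.92 and 100 of all probe sets with 1 symbol, as the liver label implies. The mean signals of the members ran from 4.14 to 8.96, with quartiles at 6.44, 6.98 and 7.53, and they cannot be ranked against each other because probes differ in brightness. Dairy replicate 3 and casein replicate 4 stood apart in having the narrowest spread of signals (SD 2.07 and 2.17), against 2.29 to 2.40 on the other 10 arrays. Key values are therefore also given without both arrays, a choice made after seeing the data.

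No mitochondrial ribosomal protein gene passed the threshold of an adjusted p of 0.05 (limma, Benjamini-Hochberg over all 15310 probe sets) in any of the 3 comparisons. A moderated F test for any difference between diets also called 0 of the 72 probe sets, with a lowest adjusted p of 0.58. Of all 15310 probe sets it called 5. An unadjusted p under 0.05 in this test was reached by 5 of the 72, beside 1188 of all 15310. These 5 were both of Mrpl42, and Mrpl30, Mrps16 and Mrps18c. Within both subunits some probe sets had higher and others lower mean signal on each test diet. The members with the largest differences are described below as measurements, none of them past the threshold.

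Between dairy and casein, 0 of 72 members were called, where 0.0849% of all probe sets were. Of the 44 large-subunit probe sets, 26 (59.1%) had a lower mean on dairy, against 53.2% of all probe sets, and the median difference was -0.058, against -0.022 over all. The differences ran from -1.09 to 0.45. An unadjusted p under 0.05 was reached by 1 large-subunit probe set with a higher signal on dairy and by 5 with a lower one, where 4.59% and 6.32% of all probe sets reached it. Of the 28 small-subunit probe sets, 18 (64.3%) had a lower mean on dairy, with a median of -0.060 and a range from -0.62 to 0.51. In that subunit 2 probe sets reached an unadjusted p under 0.05 with a higher signal and 1 with a lower one. The 95% interval lay within a 2-fold difference either way for 36 of the 44 large-subunit and 26 of the 28 small-subunit probe sets. It did so for 11998 of all 15310.

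These small medians depended on how the arrays were scaled. After quantile normalization, which gives every array the same distribution of values, 18 of 44 large-subunit probe sets (40.9%) and 9 of 28 small-subunit probe sets (32.1%) had a lower mean on dairy. The medians became 0.052 and 0.091, while that of all probe sets was -0.004. The counts at an unadjusted p under 0.05 became 4 higher and 4 lower in the large subunit and 4 higher and 1 lower in the small subunit, against 920 and 852 of all 15310 probe sets. Without both arrays of narrow spread they were 2 higher and 7 lower, and 2 higher and 1 lower, against 1160 and 1504 of all 15310. So no direction can be given for either subunit as a whole between dairy and casein.

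Mrpl42, which codes for a large-subunit protein with no counterpart in bacterial ribosomes, had the largest differences, and it was measured by separate probe sets of very different brightness. On the dim probe set (10764314) the casein arrays read 5.11, 4.79, 4.36 and 4.20, the dairy arrays 3.94, 3.57, 2.51 and 4.10, and the leucine arrays 4.46, 4.34, 3.89 and 4.39. On the bright one (10901999) the casein arrays read 9.69, 9.10, 9.20 and 9.14, the dairy arrays 8.12, 8.47, 8.24 and 8.89, and the leucine arrays 9.66, 9.11, 8.55 and 8.52. On both probe sets every dairy array lay below every casein array, and the leucine arrays overlapped both groups. The difference between dairy and casein was -1.09 ± 0.32 (SE, n = 4 per diet; limma adjusted p = 0.295), a 2.13-fold lower signal, on the dim probe set. On the bright probe set it was -0.85 ± 0.26 (limma adjusted p = 0.307), a 1.81-fold lower signal. Without both arrays of narrow spread the differences were -0.89 and -0.84. The annotation used here does not say whether these probe sets measure the same transcript or a related copy.

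Non-overlap of the dairy and casein arrays was seen for 5 large-subunit probe sets on the lower side (Mrpl21, Mrpl23, Mrpl54 and both of Mrpl42) and 2 on the higher side (Mrpl14 and Mrpl27), where 2.18% and 2.09% of all probe sets showed it. In the small subunit Mrps16 alone did so, on the higher side. Mrpl21, a large-subunit protein with a bacterial counterpart, read 8.25, 8.02, 7.94 and 7.87 on casein, 7.31, 7.82, 6.88 and 7.77 on dairy, and 8.27, 8.11, 7.61 and 7.58 on leucine. Its difference between dairy and casein was -0.58 ± 0.23 (limma adjusted p = 0.393), although dairy replicates 2 and 4 lay only just under the casein range. Mrpl54 read 9.142, 9.186, 9.001 and 9.131 on casein against 8.900, 8.928, 8.438 and 8.964 on dairy, a difference of -0.31 ± 0.15. Mrpl23, whose bacterial counterpart lies at the exit of the protein tunnel, differed by -0.22 ± 0.14. In each of these 3 genes the lowest of the dairy arrays was replicate 3, the array of narrowest spread.

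Mrpl46, a further large-subunit protein, read 7.74, 7.41, 7.57 and 8.12 on casein, 7.05, 7.40, 6.75 and 7.45 on dairy, and 7.68, 7.59, 7.19 and 7.39 on leucine. The difference between dairy and casein was -0.55 ± 0.20 (limma adjusted p = 0.365), and the groups overlapped. Without both arrays of narrow spread, which hold its highest casein and lowest dairy value, it was -0.28. Mrpl47, in the family of a protein at the tunnel exit, differed by -0.69 ± 0.31 with overlapping groups. It read 5.27 on dairy replicate 3, against 6.25 to 6.80 on the other dairy arrays.

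Among members with a higher signal on dairy, Mrpl14, a protein of the face where the subunits meet, read 5.03, 5.12, 4.87 and 5.24 on casein, 5.61, 5.27, 5.87 and 5.30 on dairy, and 5.11, 5.39, 5.31 and 4.69 on leucine. The dairy arrays all lay above the casein arrays, with the nearest pair at 5.27 and 5.24, and the difference was 0.45 ± 0.19 (limma adjusted p = 0.428). Mrpl27, whose bacterial counterpart reaches the site of peptide bond formation, read 8.35, 8.36, 8.30 and 8.16 on casein and 8.77, 8.65, 8.63 and 8.44 on dairy, a difference of 0.33 ± 0.15. Mrpl10, the base of the stalk that recruits translation factors, differed by 0.32 ± 0.16 with overlapping groups. Mrpl12, the stalk protein itself, which also binds the mitochondrial RNA polymerase, differed by 0.09 ± 0.16.

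In the small subunit Mrps16 had the smallest p. This protein has a bacterial counterpart, and its human gene is known from inherited disease of mitochondrial translation. The casein arrays read 7.85, 8.05, 7.74 and 8.11, the dairy arrays 8.56, 8.42, 8.47 and 8.33, and the leucine arrays 8.52, 8.25, 8.28 and 7.95. All dairy arrays lay above all casein arrays, and 3 of the 4 leucine arrays did too. The difference between dairy and casein was 0.51 ± 0.15 (SE, n = 4 per diet; limma adjusted p = 0.295), a 1.42-fold higher signal, with a 95% interval from 0.19 to 0.83. Between leucine and casein it was 0.32 ± 0.15, with an interval from -0.005 to 0.64.

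Mrps24, a protein near the path by which messenger RNA enters, read 7.39, 7.56, 7.09 and 8.03 on casein, 8.17, 7.90, 8.10 and 7.86 on dairy, and 7.84, 7.73, 7.77 and 7.70 on leucine. Casein replicate 4 lay inside the dairy range, and the other casein arrays lay below it. The difference between dairy and casein was 0.49 ± 0.18 (limma adjusted p = 0.365). Without casein replicate 4 it was 0.66 and passed the threshold, with an adjusted p of 0.048 in limma. That setting called 237 of all probe sets, against 13 with every array. Without casein replicate 3 the difference was 0.35. The highest limma adjusted p over the alternatives was 0.80. Mrps12, which helps check the pairing of codon and transfer RNA, differed by 0.31 ± 0.17, with dairy arrays at 7.34, 7.13, 7.18 and 7.08 against casein arrays at 6.75, 6.97, 6.66 and 7.11.

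Mrps18c had the lowest small-subunit difference between dairy and casein. It is 1 of 3 vertebrate genes related to a bacterial small-subunit protein. It read 8.82, 8.68, 8.41 and 8.30 on casein, 8.19, 7.98, 7.22 and 8.37 on dairy, and 9.19, 8.82, 8.51 and 8.09 on leucine. The difference was -0.62 ± 0.27 (limma adjusted p = 0.444), and -0.46 without both arrays of narrow spread. The relatives Mrps18a and Mrps18b differed by -0.08 ± 0.14 and 0.06 ± 0.28. Mrps33, which has no bacterial counterpart, differed by -0.52 ± 0.27. The probe sets of Mrps11, part of the platform of the small subunit, differed by -0.34 ± 0.17 and -0.20 ± 0.24.

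**Figure D1:**
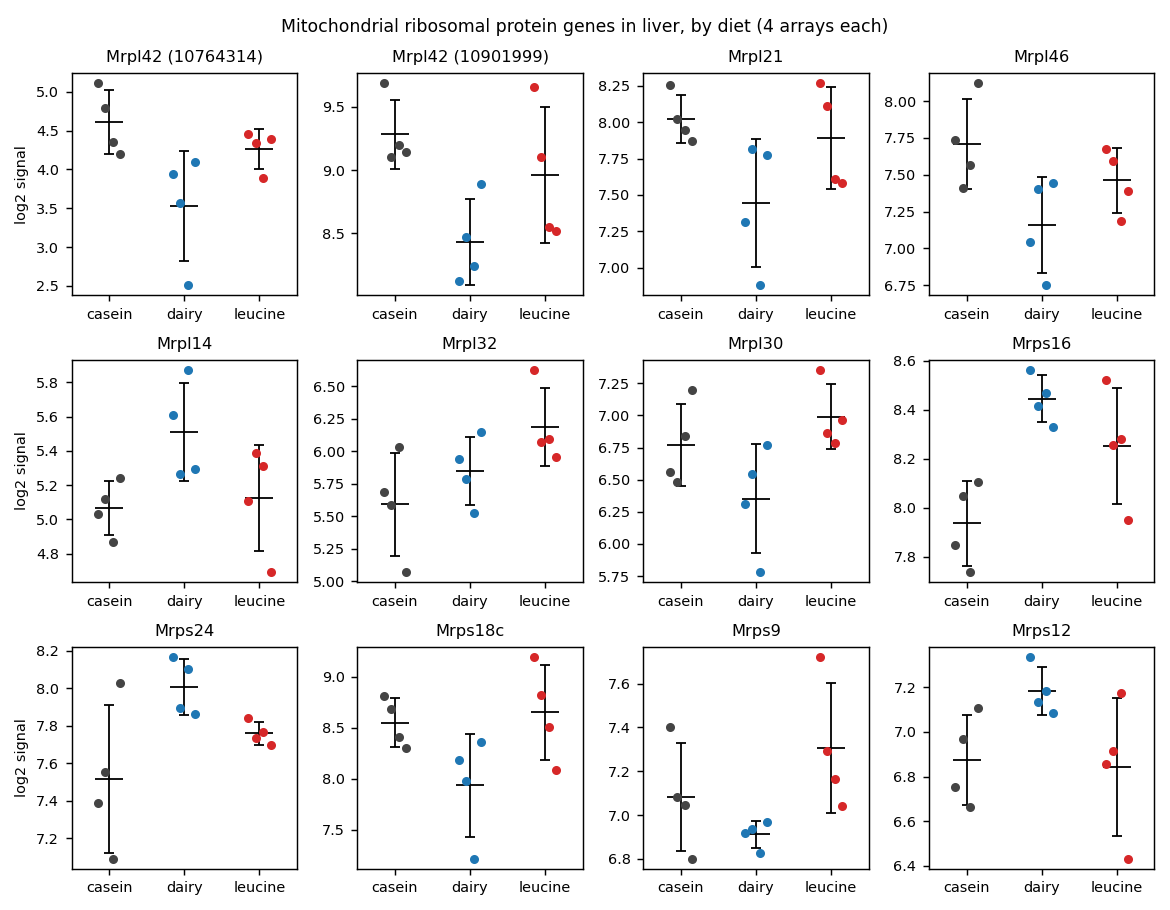
Log2 signal (vertical axis, a scale of its own in each panel) of 12 mitochondrial ribosomal protein probe sets in each liver sample, by diet; points are the 4 arrays of a diet in the order of their replicate numbers, long lines are means and bars are 1 SD. The dairy arrays lie below all casein arrays in both panels of Mrpl42 and in Mrpl21, and above them in Mrpl14 and Mrps16, while the groups overlap elsewhere between dairy and casein.

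Promoter sequences are shown for 4 members described above, large-subunit and small-subunit genes with and without motif matches, to show the DNA next to their start sites. RefSeq windows of the GRCr8 assembly, from 250 bases before to 50 after a start, were found for 54 of the 68 genes, 56 windows in all. Each sequence below runs from 150 bases before to 30 after the start, on the gene's own strand, with motif matches in capitals. Mrpl42 lies at chr7:32028493-32028672 on the minus strand, Mrpl46 at chr1:142117001-142117180 on the minus strand, Mrps16 at chr15:3967659-3967838 on the plus strand and Mrps18c at chr14:9122877-9123056 on the minus strand.
Mrpl42: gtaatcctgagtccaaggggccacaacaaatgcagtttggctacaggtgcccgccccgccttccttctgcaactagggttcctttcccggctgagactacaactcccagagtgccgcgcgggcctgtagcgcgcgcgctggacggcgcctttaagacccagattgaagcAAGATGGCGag
Mrpl46: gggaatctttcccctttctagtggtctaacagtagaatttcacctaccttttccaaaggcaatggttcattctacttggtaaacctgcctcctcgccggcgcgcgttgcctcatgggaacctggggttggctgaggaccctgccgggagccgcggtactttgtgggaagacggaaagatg
Mrps16: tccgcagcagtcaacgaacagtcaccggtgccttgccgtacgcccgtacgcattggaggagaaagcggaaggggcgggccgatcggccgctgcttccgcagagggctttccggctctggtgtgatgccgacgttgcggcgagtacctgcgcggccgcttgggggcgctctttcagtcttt
Mrps18c: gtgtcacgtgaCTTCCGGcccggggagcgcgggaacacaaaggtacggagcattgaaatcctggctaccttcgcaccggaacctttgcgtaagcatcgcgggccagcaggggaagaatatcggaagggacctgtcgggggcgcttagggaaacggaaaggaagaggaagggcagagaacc
Motifs of 3 factors known for genes of mitochondrial proteins or ribosomes were searched on both strands of each window: CCGGAAG (the ETS family, which includes GABP), GCGCATGCG (NRF1) and AAGATGGCG (YY1). None of the motifs is contained in another, and matches were counted separately for each. The Mrpl42 stretch holds a YY1 match from 20 bases after the start, and the Mrps18c stretch an ETS match on the other strand from 139 bases before it. The Mrpl46 window holds a YY1 match from 25 bases after the start that runs past the printed end, so it has no capitals here. The Mrps16 window holds none of the 3 motifs.

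Across all 56 windows, 18 (32.1%) held the ETS motif, against 8.75% of all 33469 RefSeq promoter windows. The YY1 motif was in 9 (16.1%), against 1.73%, and the NRF1 motif in 5 (8.93%), against 1.52%. At least 1 of the 3 was in 27 windows (48.2%), against 11.3% of all. Member windows also had a higher median GC content, 56% against 51.7%, and a median of 18 CpG dinucleotides against 7, which by itself raises the number of matches to motifs that contain CpG. A match is a run of letters, and binding was not measured.

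The windows of 15 member genes overlapped that of a gene on the opposite strand. Mrpl46 and Mrps11, from different subunits, share such a region with each other. Others lie beside genes with known roles: Mrpl47 beside Ndufb5, a subunit of respiratory complex I, Mrpl32 beside Psma2, a proteasome subunit, and Mrpl18 beside Tcp1, a subunit of a folding chaperone. In the shared pair, the difference between dairy and casein was -0.55 ± 0.20 for Mrpl46 and -0.34 ± 0.17 and -0.20 ± 0.24 for the probe sets of Mrps11.

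Between leucine and casein, 0 of 72 members were called, as were 0% of all probe sets. An unadjusted p under 0.05 was reached by 1 large-subunit probe set with a higher signal on leucine and by 0 with a lower one, and by 0 small-subunit probe sets, where 1.39% and 1.92% of all probe sets reached it. This count depended on the arrays of narrow spread. Without them, 3 large-subunit probe sets reached it with a higher and 6 with a lower signal, and 2 and 4 small-subunit ones, beside 812 and 1014 of all 15310 probe sets, with 0 called. In no member did the 4 leucine arrays all lie above, or all lie below, the 4 casein arrays, where 1.06% and 1.38% of all probe sets did. Of the large subunit 23 of 44 probe sets (52.3%) and of the small subunit 13 of 28 (46.4%) had a lower mean on leucine, against 56.2% of all probe sets. The medians were -0.007 and 0.026, against -0.029 over all probe sets, and 0.034 and 0.070 after quantile normalization. After median centring 45.5% and 35.7% had a lower mean, against 42.3% of all. The 95% interval lay within a 2-fold difference for 39 of 44 large-subunit and all 28 small-subunit probe sets, beside 13359 of all 15310.

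The member that reached an unadjusted p under 0.05 was Mrpl32, a large-subunit protein that must be cut by a protease of the inner membrane before it joins the ribosome. It read 5.68, 5.59, 6.03 and 5.07 on casein, 5.94, 5.79, 5.53 and 6.15 on dairy, and 6.62, 6.07, 6.09 and 5.95 on leucine. Casein replicate 3 overlapped the leucine range, and casein replicate 4 was the lowest array. The difference between leucine and casein was 0.59 ± 0.22 (limma adjusted p = 0.999), and 0.42 without both arrays of narrow spread. On the lower side Mrpl50 differed by -0.58 ± 0.33, with casein replicate 1 at 6.08 and the other 11 arrays between 3.97 and 5.09. Its difference was -0.25 without casein replicate 1 and -0.87 without casein replicate 4. Mrps14, a protein of the head of the small subunit, differed by -0.32 ± 0.15.

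Between leucine and dairy, 0 of 72 members were called, as were 0% of all probe sets. On the leucine side 3 large-subunit and 2 small-subunit probe sets had a higher signal at an unadjusted p under 0.05, and 0 had a lower one, where 3.65% and 3.3% of all probe sets reached it. Without both arrays of narrow spread, 1 large-subunit probe set reached it with a higher signal and 1 small-subunit probe set with a lower one. Of all 15310 probe sets, 479 were higher and 689 lower in that setting. After quantile normalization 3 were higher and 0 lower in the large subunit, and 1 higher and 2 lower in the small. The counts over all 15310 were then 594 and 664. From the deposited values, the large-subunit probe sets were Mrpl30, Mrpl18 and the dim one of Mrpl42, and the small-subunit ones Mrps18c and Mrps9. Of the large subunit 19 of 44 probe sets (43.2%) and of the small subunit 12 of 28 (42.9%) had a lower mean on leucine, against 52.0% of all. The medians were 0.008 and 0.061, and -0.058 and -0.010 after quantile normalization, when 61.4% and 50% had a lower mean. Without leucine replicate 4, 20.5% of large-subunit probe sets had a lower mean on leucine.

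Groups did not overlap for 1 large-subunit probe set with a higher signal on leucine (Mrpl30), 1 small-subunit probe set with a higher signal (Mrps9) and 1 with a lower signal (Mrps24), where 2.04% and 3.04% of all probe sets showed it. Mrpl30 read 6.56, 6.49, 6.84 and 7.20 on casein, 6.31, 6.54, 5.78 and 6.77 on dairy, and 7.35, 6.87, 6.79 and 6.96 on leucine. The difference between leucine and dairy was 0.64 ± 0.23 (limma adjusted p = 0.657), and the nearest arrays of the groups, at 6.79 and 6.77, were close. Mrps9, a protein of the head of the small subunit, read 7.40, 7.08, 7.05 and 6.80 on casein, 6.92, 6.94, 6.83 and 6.97 on dairy, and 7.72, 7.29, 7.17 and 7.04 on leucine, a difference of 0.39 ± 0.17 between leucine and dairy. Mrps18c differed by 0.72 ± 0.27 between leucine and dairy (limma adjusted p = 0.66), and by 0.48 without both arrays of narrow spread. Mrpl18, whose relatives bind a small RNA of the large subunit, differed by 0.57 ± 0.23. Since the dairy arrays enter both comparisons, the low dairy values of Mrpl42 and Mrps18c count in each.

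**Figure D2:**
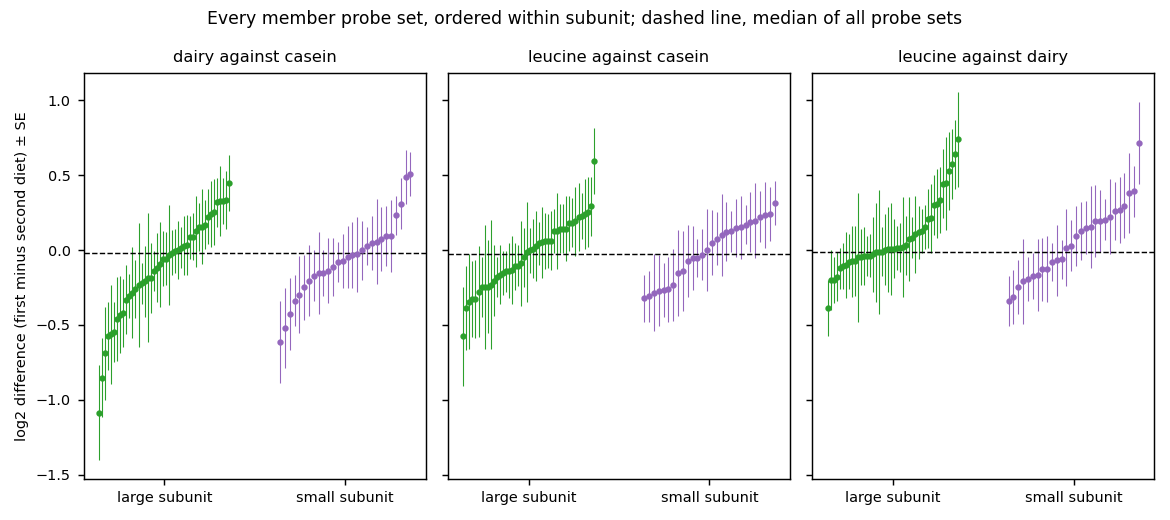
Log2 difference ± SE (vertical axis) for every member probe set, ordered by size within the large (green) and small (purple) subunit, in each of the 3 comparisons; the dashed line is the median of all probe sets with 1 symbol. Members lie on both sides of the dashed line in each panel, and the dim probe set of Mrpl42 at -1.09 is the lowest point between dairy and casein.

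Members of known role that stood outside these lists had small differences. Mrpl44, which resembles the RNA-cutting enzyme RNase III, differed by -0.06 ± 0.18 between dairy and casein and -0.14 ± 0.18 between leucine and casein. Mrps22, a protein of the small subunit with human disease variants known, differed by -0.11 ± 0.20 and 0.15 ± 0.20. Mrps27, which belongs to the RNA-binding pentatricopeptide repeat family, differed by -0.30 ± 0.26 and -0.28 ± 0.26. Mrps30 and Mrps18a, small-subunit names whose proteins lie in the large subunit, differed by -0.15 ± 0.27 and -0.08 ± 0.14 between dairy and casein. Counting both as large subunit only regroups the same fit, so it could not change the number of members called. Mrpl11 and Mrps36 were not analysed here.

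The spread within diets was much as for other genes. The median residual SD within diets was 0.30 for large-subunit and 0.29 for small-subunit probe sets, against 0.29 over all probe sets. Mrps7 had the smallest SD, 0.12, and Mrpl41 the largest, 0.67 and 0.70 on its probe sets. That of Mrpl41, a large-subunit protein, came from the casein group, whose arrays read 6.95, 6.85, 7.77 and 5.08 on probe set 10843854 and 7.01, 6.89, 7.79 and 5.01 on probe set 10911993. The other 8 arrays lay between 6.11 and 6.64 on both, so casein replicates 3 and 4 were the highest and the lowest of the 12. Mrps18b spread most on dairy, with 8.17, 8.98, 7.71 and 9.28, while its leucine arrays lay between 8.28 and 8.36. The probe sets of Mrpl40 read alike, with differences between dairy and casein of 0.08 ± 0.14 and -0.02 ± 0.15.

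Members of both subunits tended to be high or low on the same arrays within a diet. On leucine replicate 1, 34 of 44 large-subunit and 19 of 28 small-subunit probe sets lay above their own 12-array mean, but on leucine replicate 4 only 8 and 7 did. Casein replicate 1 had 31 and 22 above, and dairy replicate 3 had 12 and 9. Casein replicate 4 was an exception, with 23 of the large subunit and 8 of the small subunit above. For comparison, 2249 other probe sets with mean signals inside the members' interquartile range were counted in the same way. On leucine replicate 4, 18.2% of large-subunit and 25% of small-subunit members lay above their mean, against 45.9% of these others. On casein replicate 1 the shares were 70.5% and 78.6% against 67.0%, so the other probe sets were high there too. On casein replicate 3 the shares were 38.6% and 46.4% against 69.6%. On dairy replicate 3, the array of narrowest spread, they were 27.3% and 32.1% against 22.9%. These other probe sets had a median difference of -0.17 between dairy and casein, lower than either subunit's median. The part of array spread in the members' values was not tested beyond leaving out arrays and rescaling.

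**Figure D3:**
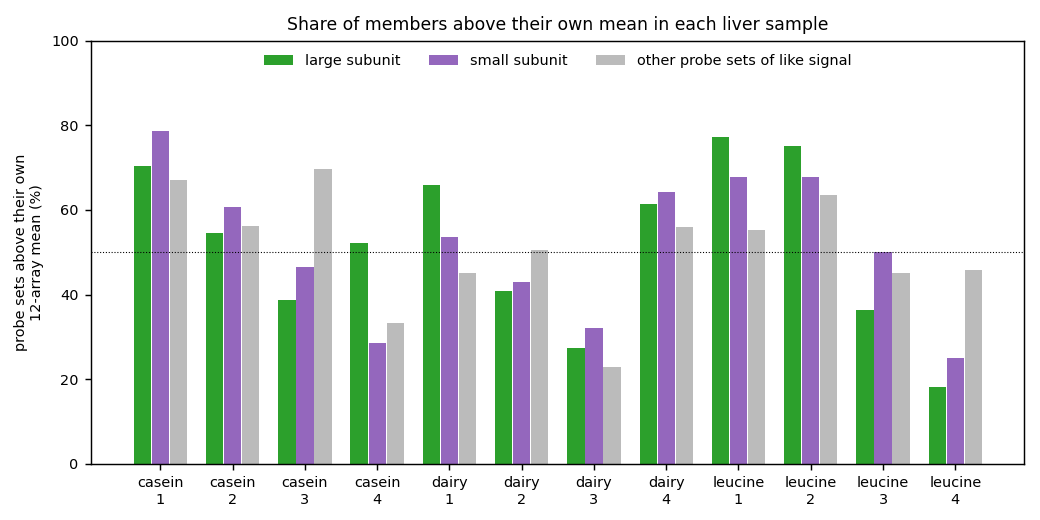
Share of probe sets (%, vertical axis) above their own mean over 12 arrays, for each liver sample (horizontal axis), for large-subunit members (green), small-subunit members (purple) and 2249 other probe sets of like signal (grey). Among large-subunit members the share runs from 18.2% on leucine replicate 4 to 77.3% on leucine replicate 1, within 1 diet.

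Markers of other liver cells and blood were set beside these values. The mean signal of 7 erythroid genes lay between 5.13 and 5.47 on the casein arrays and between 5.61 and 5.85 on the dairy arrays, without overlap, and between 5.20 and 6.99 on the leucine arrays. Neutrophil markers ran from 3.38 to 4.96, 3.69 to 5.50 and 3.52 to 5.44 on casein, dairy and leucine. Stellate cell markers ran from 6.13 to 6.67, 6.46 to 7.14 and 6.41 to 6.72, and hepatocyte markers from 12.7 to 12.9, 12.4 to 12.8 and 12.5 to 12.8. The part of these markers in the members' differences was not tested.

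Other genes needed to build and run the mitochondrial ribosome were measured on the same arrays. None of them passed the threshold in limma either. Of the mitochondrial translation factors, which start, extend and end protein chains, 9 of 15 listed genes were measured, and all 9 had a lower mean on dairy than on casein, with a median difference of -0.40 and 4 lower at an unadjusted p under 0.05. Over all probe sets 53.2% had a lower mean on dairy and 6.32% were lower at that p, and the median of other probe sets with signals like those of the ribosomal members was -0.17. After quantile normalization all 9 were still lower, with a median of -0.28, and without both arrays of narrow spread the median was -0.55. Between leucine and casein 8 of 9 were lower, against 56.2% of all probe sets, with a median of -0.07. An unadjusted p under 0.05 was reached by 0 of the 9. After quantile normalization 6 of 9 were lower, against 51.8% of all, with a median of -0.05. After median centring 5 of 9 were, against 42.3% of all, with a median of -0.003. Without both arrays of narrow spread 8 of 9 were, against 53.3% of all, with a median of -0.27 and 1 lower at that p. Mtif2, the initiation factor that brings in the starting transfer RNA, read 7.55, 7.24, 7.35 and 6.63 on casein, 5.99, 6.53, 6.15 and 6.70 on dairy, and 7.07, 7.07, 6.60 and 6.42 on leucine. All dairy arrays except replicate 4 lay below all casein arrays, with a difference of -0.85 ± 0.24 (limma adjusted p = 0.259). Gfm2, which takes the ribosome apart after each protein, differed by -0.40 ± 0.15.

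Of factors for ribosome assembly and modification of its RNA, 21 of 26 listed genes were measured on 22 probe sets. Between dairy and casein 19 of the 22 had a lower mean, with a median of -0.19, 0 higher and 7 lower at an unadjusted p under 0.05. The median of other probe sets with signals like those of the ribosomal members was -0.17. Those were not matched to the signals of these assembly factors, many of which were dimmer. Of all probe sets 53.2% had a lower mean on dairy and 6.32% were lower at that p. Between leucine and casein 19 of 22 also had a lower mean, with a median of -0.23 and 4 lower at that p. For all probe sets these shares were 56.2% and 1.92%. After quantile normalization the median between leucine and casein was -0.15 with 1 lower at that p, and after median centring -0.16 with 0. The casein arrays are shared by these comparisons. Mtg1, a GTPase that acts on the large subunit, read 7.96, 7.89, 7.69 and 7.88 on casein, 6.88, 7.05, 6.70 and 7.30 on dairy, and 7.63, 7.66, 7.27 and 7.41 on leucine. All dairy and all leucine arrays lay below all casein arrays, and leucine replicate 3 lay just below dairy replicate 4. The difference between dairy and casein was -0.87 ± 0.16, a 1.83-fold lower signal, with a limma adjusted p of 0.062, just outside the threshold. Ddx28, a helicase of large-subunit assembly, differed by -0.48 ± 0.15 between dairy and casein. Mpv17l2, a membrane protein linked to ribosome assembly, differed by -0.70 ± 0.20 between leucine and dairy, with no overlap.

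Genes for upkeep and transcription of mitochondrial DNA had 11 of 14 measured probe sets lower on dairy than on casein, with a median of -0.35. Of all probe sets 53.15% were lower, and the median of other probe sets with signals like those of the ribosomal members was -0.17. At an unadjusted p under 0.05, 1 was lower, where 6.32% of all probe sets were. Without both arrays of narrow spread 5 were, beside 1504 of all 15310. After quantile normalization the median was -0.24, with 1 higher and 1 lower at that p. Tfb2m, which opens the promoters of mitochondrial DNA, differed by -0.71 ± 0.34, and Tfam, which packs the DNA, by -0.51 ± 0.30. On dairy replicate 3 Tfb2m read 5.77, against 6.94 to 7.20 on the other dairy arrays, and Tfam 5.80 against 6.67 to 6.78. Casein replicate 4 was the lowest casein array for both, at 6.51 and 6.15. Polrmt, the mitochondrial RNA polymerase, differed by 0.18 ± 0.18. Among 8 measured nuclear regulators the median was -0.095, and 0.021 after quantile normalization. Ppargc1a, the coactivator PGC-1 alpha, which drives the making of mitochondria, read 4.32, 4.48, 5.93 and 4.81 on casein, 3.80, 3.48, 3.78 and 4.07 on dairy, and 4.92, 4.88, 3.89 and 4.51 on leucine. The dairy arrays lay below all casein arrays, with a difference of -1.10 ± 0.33 (limma adjusted p = 0.295), and casein replicate 3 stood well above the rest. Of the factors whose motifs were searched, Gabpa differed by -0.51 ± 0.27, Nrf1 by -0.37 ± 0.20 and Yy1 by -0.14 ± 0.18. All 3 were lowest on dairy replicate 3, the array of narrowest spread. There Gabpa read 5.44, against 6.51 to 6.74 on the other dairy arrays. Nrf1 read 5.14 against 5.93 to 5.97, and Yy1 6.78 against 7.20 to 7.54. These differences therefore rest largely on that array.

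Mitochondrial ribosomal proteins listed under other symbols numbered 5, of which 3 had a lower mean on dairy than on casein. Gadd45gip1, a large-subunit protein, differed by 0.40 ± 0.18 between dairy and casein, and Ptcd3, a pentatricopeptide repeat protein of the small subunit, by 0.50 ± 0.21 between leucine and dairy. The 88 probe sets for respiratory chain and ATP synthase subunits, the products of which work beside the mitochondrially made proteins, had a median of -0.011 between dairy and casein. Of these, 45 were lower and 0 called, where 53.15% of all probe sets were lower. At an unadjusted p under 0.05, 9 were higher and 7 lower, where 4.59% and 6.32% of all probe sets were. After quantile normalization the median of the 88 was 0.069. Without both arrays of narrow spread it was -0.12, with 53 lower and 3 called. In that setting 164 of all 15310 probe sets were called, and 51.9% were lower.

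Ribosomal proteins of the cytosol, which form the other ribosome of the cell, gave other values in the same comparison. Of their 248 probe sets, 200 had a higher mean on dairy than on casein, with a median of 0.44, and 13 passed the threshold, all higher. These were the only 13 probe sets called in the whole table. Genes of this family have many near-identical copies, and the copy behind each of these probe sets is uncertain. Of mitochondrial ribosomal protein probe sets, 28 of 72 had a higher mean on dairy and 0 were called, and the difference between the families was not tested. Between leucine and casein the medians were 0.20 for the cytosolic and -0.007 and 0.026 for the large and small mitochondrial subunits.

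**Figure D4:**
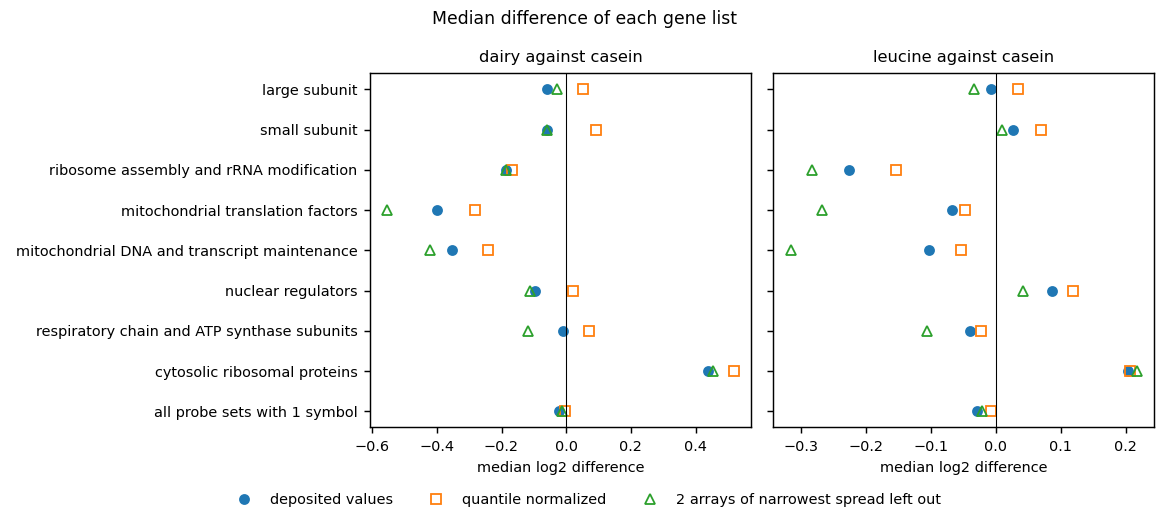
Median log2 difference (horizontal axis) of each gene list between dairy and casein (left) and leucine and casein (right), from the deposited values (blue circles), after quantile normalization (orange squares) and without both arrays of narrowest spread (green triangles). Both subunits stay between -0.06 and 0.09 between dairy and casein and change sign with scaling, translation factors stay below 0 under all 3 settings, and cytosolic ribosomal proteins stay above 0.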

How the data were processed

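Liver RNA of 12 rats, 4 per diet, was hybridised to 12 arrays. The deposited log2 values, 1 per probe set and array, were made by the authors. The submitters' processing notes name Affymetrix Expression Console, and its version, the summarisation and normalization method and the build of the genome are not given in sources used here. Arrays differed in spread, so the values do not share 1 distribution. A log2 difference understates changes of dim probe sets, and precision is limited by the number of arrays.

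Groups were taken from the diet in the labels. GEO's platform annotation gave the gene symbols, and the 15310 of 29214 probe sets with exactly 1 symbol entered the fit, made in R 4.3.3 with limma 3.58.1 (lmFit with 1 mean per diet on 12 arrays and eBayes at its defaults; 3.448 prior and 9 residual degrees of freedom). All tests were two-sided, with Benjamini-Hochberg adjustment over the whole table and a threshold of 0.05. The script was tested on simulated data. No set test was run. The members and lists were chosen with earlier results of these data known. The Entrez IDs of all 68 member genes were in the RefSeq gene table under the same symbol. Named for each comparison and subunit were up to 3 members each way by smallest unadjusted p, then the 3 with the largest residual SD, members with several probe sets, a list of members with known roles, and the top genes of each pathway list. Mrpl21, Mrpl23, Mrpl47, Mrpl54, Mrps7, Nrf1, Tfam and Yy1 fall outside this rule and were chosen after their values were seen.

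Alternatives were quantile normalization, median centring, all probe sets of the file, array weights, eBayes with trend and robust, dropping the dimmest probe sets, only the 8 arrays compared, a replicate block, 1 probe set per gene, subunits by place in the ribosome, leaving out each array in turn and leaving out both arrays of narrowest spread. Replicate numbers were checked for pairing: 7 of 12 correlations between same-numbered samples were over 0.1, with a range from -0.505 to 0.590. All 4 pairs of leucine and casein were over 0.1 (0.208 to 0.532), but not all pairs of the comparisons with dairy. Leucine replicates 1, 2 and 4 correlated more with a casein sample of another number (0.632, 0.465 and 0.434). The labels name no shared animal or batch. The fit has no block, and the blocked fit changed no call of a member.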

Additional observations from a re-analysis of the deposited data

Results flagged for a closer look

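In 105 groups of 4 arrays over the 35 named probe sets, 2 held an array far from the other 3 by Dixon's test at the 95% level, a test in which chance gives about 1 in 20. On probe set 10911993 of Mrpl41, leucine replicate 4 was the lowest of its diet at 6.112, with the other leucine arrays between 6.52 and 6.59. On probe set 10901999 of Mrpl42, casein replicate 1 was the highest of its diet at 9.686, with the other casein arrays between 9.10 and 9.20.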

How the results depend on the processing

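For 36 results on named members, 790 values under 21 or 22 alternatives each were computed: 0 changed sign and 4 newly passed the threshold. With array weights, Mrpl42 (probe set 10764314) gave -1.12 with a limma adjusted p of 0.019, Mrps16 0.47 with 0.045 and Mrps24 0.46 with 0.045, all between dairy and casein. Without casein replicate 4, Mrps24 gave 0.66 with 0.048. So array weights called 1 large-subunit and 2 small-subunit members between dairy and casein, beside 1182 of all 15310 probe sets. In the F test they called 1 member (adjusted p = 0.048). Leaving out 1 array at a time called 0 to 1 small-subunit members between dairy and casein. The 1 was without casein replicate 4, when 237 of all probe sets were called. Members called stayed at 0 in the other settings run. Of these, subunits by place in the ribosome used the same fit, so that setting could not change the count. The cause was not tested. Subunit medians stayed within 1 SD between arrays (0.15) of the value reported. That bound is wider than any of the reported medians, so a change of sign could pass it. Between dairy and casein the medians went from -0.058 and -0.060 to 0.052 and 0.091 after quantile normalization, for the large and small subunit. The share of small-subunit members lower on dairy became 32.1% after quantile normalization, and leaving out leucine replicate 4 took the share of large-subunit members lower on leucine than on dairy to 20.5%.

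Over all probe sets, the 13 calls between dairy and casein became 39 after quantile normalization, 42 with all probe sets of the file, 8 with trend and robust, 1182 with array weights, 6 with only the 8 arrays, 2 with 1 probe set per gene (fewer copies tested), and 164 without both arrays of narrow spread. Leaving out 1 array at a time gave 3 to 237, the highest without casein replicate 4. Between leucine and casein this gave 0 to 2, the highest without leucine replicate 2. With the replicate block 1 probe set was called between leucine and dairy and 19 between dairy and casein, and 0 members were called. Same-numbered samples of leucine and casein correlated above 0.1 in all 4 pairs (0.208 to 0.532). Leucine replicates 1, 2 and 4 correlated more with a casein sample of another number (0.632, 0.465 and 0.434), so pairing there is uncertain. The block called 0 probe sets between leucine and casein, as without it. With 4 arrays per diet, an interval within a 2-fold difference between dairy and casein was reached by 62 of 72 members. It was reached by 11998 of all 15310 probe sets.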
